A study of Mus musculus with 17 samples.

Results

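The genes described here encode 39 kinases, adaptors, lipid enzymes and phosphatases that act downstream of receptors for the Fc part of antibodies. They were picked by symbol from knowledge of the pathway, with earlier results of these data known, and all 39 were found among the 22859 genes of the count table. RNA had been sequenced in bulk from 3 macrophage subsets sorted from the synovium, the membrane lining the joint, of adult mice. Every library, controls included, is labelled as coming from an Fcgr2b knockout, the gene of the inhibitory Fc gamma receptor, and no wild-type group is compared here. The subsets were sorted as LYVE1+CX3CR1+, as MHCII+CD11c- and as MHCII+CD11c+ cells, each from control mice and from mice collected 8 h after intravenous injection of immune complexes (IC), which the study made from ovalbumin and antibody against it. There were 3 libraries in each of the 6 groups except MHCII+CD11c+ after IC, which had 2. The labels call the comparison mice healthy controls and do not say whether they were injected, or whether libraries of a group came from separate animals or from pools, so p-values measure the spread between these libraries.

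When an activating Fc receptor is clustered by immune complexes, Src family kinases phosphorylate the ITAM motifs of its signalling chain, and the kinase Syk docks there and is activated. Syk then phosphorylates adaptors such as SLP-76 and BLNK, which gather phospholipase C gamma, Vav proteins, Tec kinases and phosphoinositide 3-kinase (PI3K) and so couple the receptor to calcium release, cytoskeletal change, phagocytosis and, through the Card9, Bcl10 and Malt1 complex, to NF-kappaB. The pathway is held back by lipid phosphatases of the SHIP family, by the tyrosine phosphatase SHP-1, by Dok adaptors and by Cbl ubiquitin ligases. Macrophages use it to engulf antibody-coated particles and to release inflammatory mediators.

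Libraries held between 2301913 and 7248939 counts. Fewer genes were detected in LYVE1+CX3CR1+ libraries after IC, with 11547 to 13829 at equal depth against 13820 to 17483 in the other libraries, and the smallest library was the LYVE1+CX3CR1+ IC replicate 3. Fcgr2b was still counted in every library, at 69.3 to 248 CPM (reads of a gene relative to all reads of its library, with library sizes scaled by TMM), and the table does not show which exons the reads came from. The sort was visible in its own genes: Itgax, encoding CD11c, lay at 275 to 434 CPM in MHCII+CD11c+ controls and at no more than 16.0 CPM in the other controls, and H2-Eb1, an MHC class II gene, at 3.78 to 7.54 CPM in LYVE1+CX3CR1+ controls and at 0 in that subset after IC. The 9 macrophage markers summed to 2992 to 4797 CPM in MHCII+CD11c+ controls and to 9976 to 14171 in the other controls. Dendritic cell markers (6 genes) summed to 255 to 648 CPM in MHCII+CD11c+, 95.8 to 245 in MHCII+CD11c- and 19.5 to 23.4 in LYVE1+CX3CR1+ controls, where Ccr7 was at 0 in every library. Within the MHCII+CD11c+ controls, replicate 2 stood apart, with Lyve1 at 382 CPM against 29.8 and 25.3 and C1qa at 667 CPM against 173 and 186. Neutrophil markers (8 genes) summed to 30.8 to 40.5 CPM in LYVE1+CX3CR1+, 41.1 to 311 in MHCII+CD11c- and, unevenly, 89.4 to 482 in MHCII+CD11c+ controls, and to at most 112 CPM after IC. Monocyte markers (5 genes) summed to 464 to 721, 340 to 533 and 583 to 1181 CPM in the same order of controls, and B cell markers to 87.6 to 115, 127 to 375 and 26.9 to 57.1 CPM. Markers of T and NK cells summed to at most 8.69 CPM in any library, over the 4 of 9 listed genes that were measured. In bulk RNA, fewer cells of a type and less RNA per cell cannot be told apart, and the part of these marker levels in the results below was not tested.

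All 39 genes passed the filter on low counts and were tested with the other genes kept, 15272 in all. Together they made up 5998 to 6608 CPM in LYVE1+CX3CR1+ controls, 5852 to 6425 in MHCII+CD11c- controls and 6615 to 8498 in MHCII+CD11c+ controls, and 5762 to 6148, 6294 to 6800 and 7960 to 8729 CPM after IC. Divided by transcript length, the gene with the highest level in every group was Tyrobp, encoding the ITAM adaptor DAP12. Its mean was 354 CPM per kb in LYVE1+CX3CR1+, 346 in MHCII+CD11c- libraries, and 403 in MHCII+CD11c+ controls. The genes next in order differed between subsets. In LYVE1+CX3CR1+ controls these were Inpp5d, encoding the lipid phosphatase SHIP1, at 114 ± 4.67 CPM per kb (SD, n = 3), then Ptpn6, encoding SHP-1, at 102 ± 9.95, and Lyn, a Src family kinase, at 97.2 ± 19.0, and the libraries of these 3 genes overlapped. In MHCII+CD11c- controls they were Dok2, an inhibitory adaptor, at 115 ± 13.4 CPM per kb and Syk at 102 ± 16.5, which also overlapped. In MHCII+CD11c+ controls they were Ptprc, encoding the phosphatase CD45 that keeps Src kinases primed, at 199 ± 47.3 CPM per kb and the kinase gene Prkcd at 177 ± 4.83, with overlapping libraries. Src was the lowest member in all 3, at a mean of 0.426, 0.813 and 0.667 CPM per kb.

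**Figure D1:**
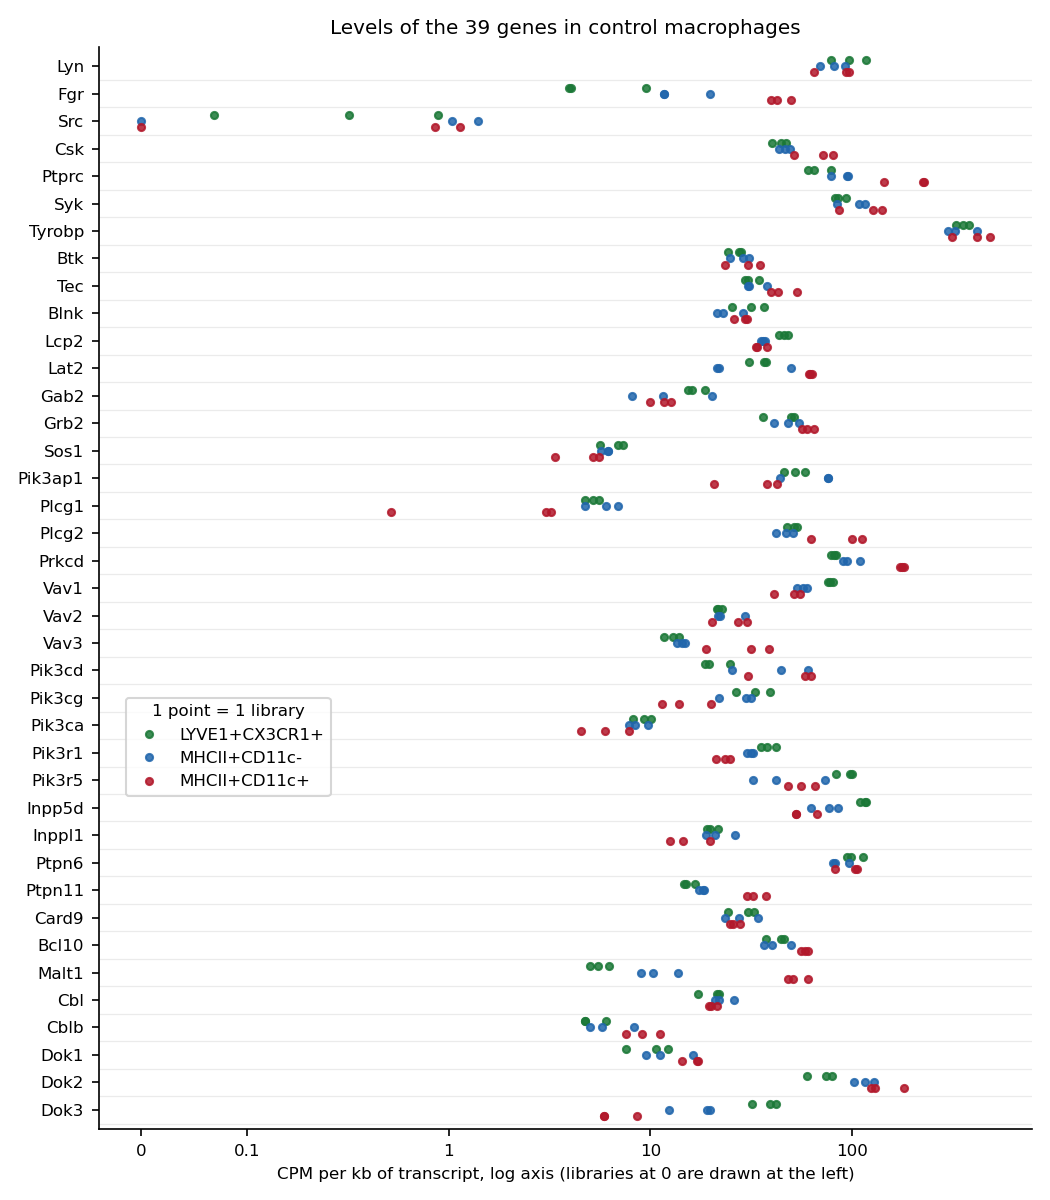
Level of each of the 39 genes in control macrophages, in CPM per kb of transcript on a log axis, with 1 point for each library and colours for the 3 subsets. Tyrobp lies farthest to the right and Src farthest to the left, and the points of Dok3, Fgr and Malt1 separate by subset.

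The members differed in how far their level moved over the 6 groups. The highest group mean was under 1.5-fold above the lowest for 9 members, among them Tyrobp at 1.31-fold, the ubiquitin ligase gene Cbl at 1.37-fold, Lyn at 1.37-fold and Bcl10 at 1.38-fold. It was between 1.5 and 3-fold for 24 members and over 3-fold for Prkcd (3.32-fold), Ptprc (3.52-fold), Dok3 (6.95-fold), Fgr (10.4-fold) and Malt1 (15.2-fold). Src had no fold, since its lowest group was at 0. The median over the 38 members with a fold was 1.99, beside 1.79 over the 6675 genes whose mean level lay in the range of the members, 18.6 to 626 CPM. For Malt1 the lowest group was LYVE1+CX3CR1+ after IC, in which replicate 3 held 3 counts of this gene.

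Control LYVE1+CX3CR1+ and MHCII+CD11c+ macrophages differed in 16 of the 39 members, of which 6 were higher and 10 lower in LYVE1+CX3CR1+. Of all genes tested, 15.2% were called, 7.83% higher and 7.4% lower. Libraries of both groups did not overlap for 12 members on the higher and 16 on the lower side, where 20.8% and 16.9% of all genes did so. The median size of the difference was 0.65 on the log2 scale over the members and 0.64 over all genes, and the median signed difference was -0.19 and 0.05. The genes higher in LYVE1+CX3CR1+ macrophages were Dok3, Inpp5d, Pik3cg, Pik3r1, Pik3r5 and Vav1. Those lower were Fgr, Ptprc, Csk, Prkcd, Plcg2, Ptpn11, Vav3, Pik3cd, Dok2 and Malt1. Of the 6 dendritic cell markers, 5 were called lower in LYVE1+CX3CR1+ in the same comparison, as were 4 of the 8 neutrophil and 2 of the 5 monocyte markers. All but 2 of the 16 calls (Csk and Pik3r5) held in every alternative fit and with each library left out, which left 14. The Csk call was lost without LYVE1+CX3CR1+ control replicate 2 or MHCII+CD11c+ control replicate 1 or 3, and the Pik3r5 call without replicate 1 or 3 of either group. Surrogate variables also lost the Csk call, and equal depth and removal of a length trend the Pik3r5 call.

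Compared with MHCII+CD11c+ controls, LYVE1+CX3CR1+ controls had more Dok3 and Inpp5d and less Fgr and Ptprc RNA, each in every alternative, and their promoter windows are shown as examples of both directions. Each window runs from 250 bases before to 50 bases after a RefSeq transcript start (GRCm38.p6) and is written 5′ to 3′ on the strand of the gene. The genes themselves span chr13:55523231-55529296 (Dok3), chr1:87620312-87720507 (Inpp5d), chr4:132974095-133001910 (Fgr) and chr1:138062861-138175708 (Ptprc) in GENCODE M21 on the same build. Capitals mark the hexamer GAGGAA, a core bound by factors of the PU.1 type, or its reverse complement TTCCTC, searched on both strands. Dok3 is at chr13:55528489-55528788 on the minus strand, Inpp5d at chr1:87620062-87620361 on the plus strand, Fgr at chr4:132973845-132974144 on the plus strand and Ptprc at chr1:138175256-138175555 on the minus strand.
Dok3: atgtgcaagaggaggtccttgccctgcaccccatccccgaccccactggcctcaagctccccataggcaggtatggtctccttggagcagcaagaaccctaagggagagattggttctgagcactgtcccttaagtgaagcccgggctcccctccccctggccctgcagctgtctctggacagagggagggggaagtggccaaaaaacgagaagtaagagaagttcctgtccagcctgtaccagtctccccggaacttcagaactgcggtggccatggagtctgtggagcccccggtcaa
Inpp5d: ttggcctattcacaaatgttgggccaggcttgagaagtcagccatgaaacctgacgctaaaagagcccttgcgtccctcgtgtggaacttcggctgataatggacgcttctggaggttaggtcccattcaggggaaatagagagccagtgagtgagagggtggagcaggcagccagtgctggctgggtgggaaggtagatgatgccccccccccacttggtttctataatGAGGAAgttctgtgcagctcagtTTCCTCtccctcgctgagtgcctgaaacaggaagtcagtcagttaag
Fgr: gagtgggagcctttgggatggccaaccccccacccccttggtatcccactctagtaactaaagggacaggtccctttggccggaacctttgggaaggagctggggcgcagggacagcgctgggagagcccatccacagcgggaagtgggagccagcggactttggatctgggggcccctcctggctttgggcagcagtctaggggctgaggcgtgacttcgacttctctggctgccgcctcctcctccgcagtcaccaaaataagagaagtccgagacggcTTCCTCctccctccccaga
Ptprc: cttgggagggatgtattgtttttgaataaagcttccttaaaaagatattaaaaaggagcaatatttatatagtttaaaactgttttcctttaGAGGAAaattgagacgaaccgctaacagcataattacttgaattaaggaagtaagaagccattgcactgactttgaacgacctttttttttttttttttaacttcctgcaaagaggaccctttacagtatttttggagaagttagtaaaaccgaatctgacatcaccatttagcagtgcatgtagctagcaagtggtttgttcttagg
The Dok3 window held no match, the Inpp5d window 2, and the Fgr and Ptprc windows 1 each. Ptprc has a further annotated start, whose window (chr1:138175077-138175376) held 0 matches. Of the 32 members with a window, 16 (50%) held the hexamer, against 31.3% of 27025 genes with a window. A gene was counted if any of its windows held the hexamer, and several members had more than 1 window. The 27025 genes include genes absent from the count table, and the difference in share was not tested. The hexamer was present in 3 of 6 members higher in LYVE1+CX3CR1+ controls against MHCII+CD11c+, in 4 of 8 lower and in 9 of 18 not called, so its share was 50% in each. The other 7 members, Dok2, Lat2, Malt1, Lyn, Dok1, Tyrobp and Gab2, had no window. A match describes the letters of a window and is not a measured binding site.

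Among the Src family kinases and their regulators, Fgr had the largest difference. This kinase takes part in ITAM and integrin signalling of myeloid cells. Fgr stood at 13.5, 31.9 and 13.3 CPM in LYVE1+CX3CR1+ controls, 39.2, 66.3 and 39.5 in MHCII+CD11c- controls and 167, 134 and 143 in MHCII+CD11c+ controls. The 3 subsets did not overlap, and the log2 fold change of LYVE1+CX3CR1+ against MHCII+CD11c+ was -2.94 ± 0.36 (SE; adjusted p = 6.38e-06, between 1.82e-15 and 0.000251 over the alternatives). Ptprc was at 346, 372 and 451 CPM in LYVE1+CX3CR1+, 543, 450.3 and 547 in MHCII+CD11c- libraries, and 1307, 828 and 1289.6 in MHCII+CD11c+ controls. Its lowest MHCII+CD11c+ library was replicate 2, yet every MHCII+CD11c+ library lay above all others (-1.55 ± 0.18, adjusted p = 1.6e-06). Csk, the kinase that switches Src kinases off, was at 122, 110.0 and 129 CPM in LYVE1+CX3CR1+ and at 222, 142 and 197 in MHCII+CD11c+ controls (-0.63 ± 0.18, adjusted p = 0.0193, between 0.00276 and 0.118). Lyn was at 333, 273 and 404 CPM in LYVE1+CX3CR1+ and at 336, 225 and 323 in MHCII+CD11c+ controls, and these libraries overlapped. Syk, at 439.7, 456 and 502 CPM against 683, 461 and 758, was not called in the main fit (-0.44 ± 0.17, adjusted p = 0.0937). It was called in some alternatives, namely DESeq2, limma voom, equal depth, the length trend removed and the fit without MHCII+CD11c+ control replicate 2.

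Phospholipase C gamma 2, the enzyme that releases calcium downstream of Syk, and protein kinase C delta differed together. Prkcd was at 231, 223 and 238 CPM in LYVE1+CX3CR1+, 258, 313 and 269 in MHCII+CD11c- libraries, and 517, 505 and 489 in MHCII+CD11c+ controls. Its MHCII+CD11c+ libraries were close to each other and all above the rest (-1.13 ± 0.18 for LYVE1+CX3CR1+ against MHCII+CD11c+, adjusted p = 6.78e-05). Plcg2 was at 229, 203 and 222 CPM in LYVE1+CX3CR1+ controls, 202, 219.7 and 180.2 in MHCII+CD11c- libraries, and 482, 267 and 427 in MHCII+CD11c+. Replicate 2 again held the lowest MHCII+CD11c+ value, above every library of the other 2 subsets (-0.84 ± 0.18, adjusted p = 0.00208). The related Plcg1 was low in all 3 subsets, at 28.3, 26.5 and 24.1 CPM in LYVE1+CX3CR1+ and 16.4, 15.6 and 2.65 in MHCII+CD11c+ controls, and was not called (1.16 ± 0.51, adjusted p = 0.146).

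Vav proteins are exchange factors that drive actin remodelling at the phagocytic cup. Vav1 and Vav3 differed in opposite directions. Vav1 was at 239, 230.0 and 224 CPM in LYVE1+CX3CR1+ and 163, 152 and 121 in MHCII+CD11c+ controls (0.67 ± 0.16, adjusted p = 0.00429). Vav3 was at 69.5, 58.6 and 65.3 CPM in LYVE1+CX3CR1+ and 194, 94.9 and 158 in MHCII+CD11c+ controls (-1.20 ± 0.23, adjusted p = 0.000458). Neither gene had overlapping libraries between these subsets, and Vav2 was not called.

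Of the 5 PI3K genes, 4 were called. Pik3cg encodes the p110 gamma catalytic subunit, used by G protein-coupled receptors, and was at 193, 156 and 229.5 CPM in LYVE1+CX3CR1+ against 117, 81.0 and 66.9 in MHCII+CD11c+ controls (1.12 ± 0.22, adjusted p = 0.000795). Its regulatory partner Pik3r5 was at 425, 363 and 438 CPM against 243, 286 and 211 (0.73 ± 0.23, adjusted p = 0.0364, between 0.00246 and 0.154). Both were therefore higher in LYVE1+CX3CR1+ libraries, without overlap. Pik3cd, the p110 delta subunit that is recruited by tyrosine kinases, had the opposite order, with 91.5, 122 and 96.0 CPM in LYVE1+CX3CR1+ against 287, 150.1 and 307 in MHCII+CD11c+ controls (-1.27 ± 0.30, adjusted p = 0.00611). Pik3r1, encoding the p85 alpha regulatory subunit, was at 252, 268 and 299 CPM against 166, 176 and 149.8 (0.74 ± 0.15, adjusted p = 0.00145). The catalytic subunit gene Pik3ca was not called.

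Inpp5d was at 537, 571 and 581 CPM in LYVE1+CX3CR1+, 418, 377 and 308 in MHCII+CD11c- libraries, and 330.3, 259 and 259.8 in MHCII+CD11c+ controls. LYVE1+CX3CR1+ libraries were all above the others, at 1.99-fold of MHCII+CD11c+ (0.99 ± 0.17, adjusted p = 0.000153). Ptpn11, encoding SHP-2, a phosphatase that mostly promotes signalling, was at 109.6, 112 and 123 CPM in LYVE1+CX3CR1+ against 279, 225 and 239 in MHCII+CD11c+ controls (-1.11 ± 0.18, adjusted p = 8.87e-05). The SHP-1 gene Ptpn6 was at 216, 260.3 and 227 CPM against 239.7, 189 and 243, with overlapping libraries, and the SHIP2 gene Inppl1 was not called.

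Of the Dok adaptors, which inhibit signalling, Dok3 and Dok2 were called in opposite directions. Dok3 was at 99.7, 76.2 and 93.1 CPM in LYVE1+CX3CR1+, 46.7, 45.2 and 29.4 in MHCII+CD11c- libraries, and 14.0, 20.4 and 14.0 in MHCII+CD11c+ controls. The 3 subsets did not overlap, and the level was 5.51-fold higher in LYVE1+CX3CR1+ than MHCII+CD11c+ controls (2.46 ± 0.29, adjusted p = 1.46e-06, between 3.03e-14 and 0.000102). Dok2 was at 134, 107 and 142 CPM in LYVE1+CX3CR1+, 208, 183 and 231 in MHCII+CD11c- libraries, and 326, 223 and 232 in MHCII+CD11c+ controls (-1.02 ± 0.21 for LYVE1+CX3CR1+ against MHCII+CD11c+, adjusted p = 0.000959). Dok1, at 24.1, 14.9 and 20.9 CPM against 33.8, 28.0 and 33.7, was not called.

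In the Card9, Bcl10 and Malt1 complex, edgeR called Malt1, encoding the paracaspase, and DESeq2 and the fit on only the groups compared also called Bcl10. Malt1 was at 32.1, 39.7 and 35.2 CPM in LYVE1+CX3CR1+, 57.8, 88.0 and 65.9 in MHCII+CD11c- libraries, and 308, 327 and 387 in MHCII+CD11c+ controls. The MHCII+CD11c+ libraries lay far above all others (-3.26 ± 0.59, adjusted p = 0.00207, between 3.55e-12 and 0.0153). Card9 was at 63.8, 59.5 and 47.4 CPM against 49.98, 48.3 and 54.1, and overlapped. In the main edgeR fit, 0 of the 7 scaffold adaptor genes (Blnk, Lcp2, Lat2, Gab2, Grb2, Sos1 and Pik3ap1), 0 of the 2 Tec kinase genes (Btk and Tec) and 0 of the 2 Cbl genes were called in this comparison. An unadjusted p under 0.05 was found for 4, 0 and 1 of them. DESeq2 called Lat2 of these, and limma voom called Lat2, Lcp2, Pik3ap1, Tec and Cblb. Among the other edgeR fits, that on only the groups compared called Lat2, Tec and Cblb. Surrogate variables called Pik3ap1, Tec and Cblb, and the replicate block Lat2, Pik3ap1 and Cblb. Pik3ap1 was also called with no filter and without MHCII+CD11c+ control replicate 1.

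**Figure D2:**
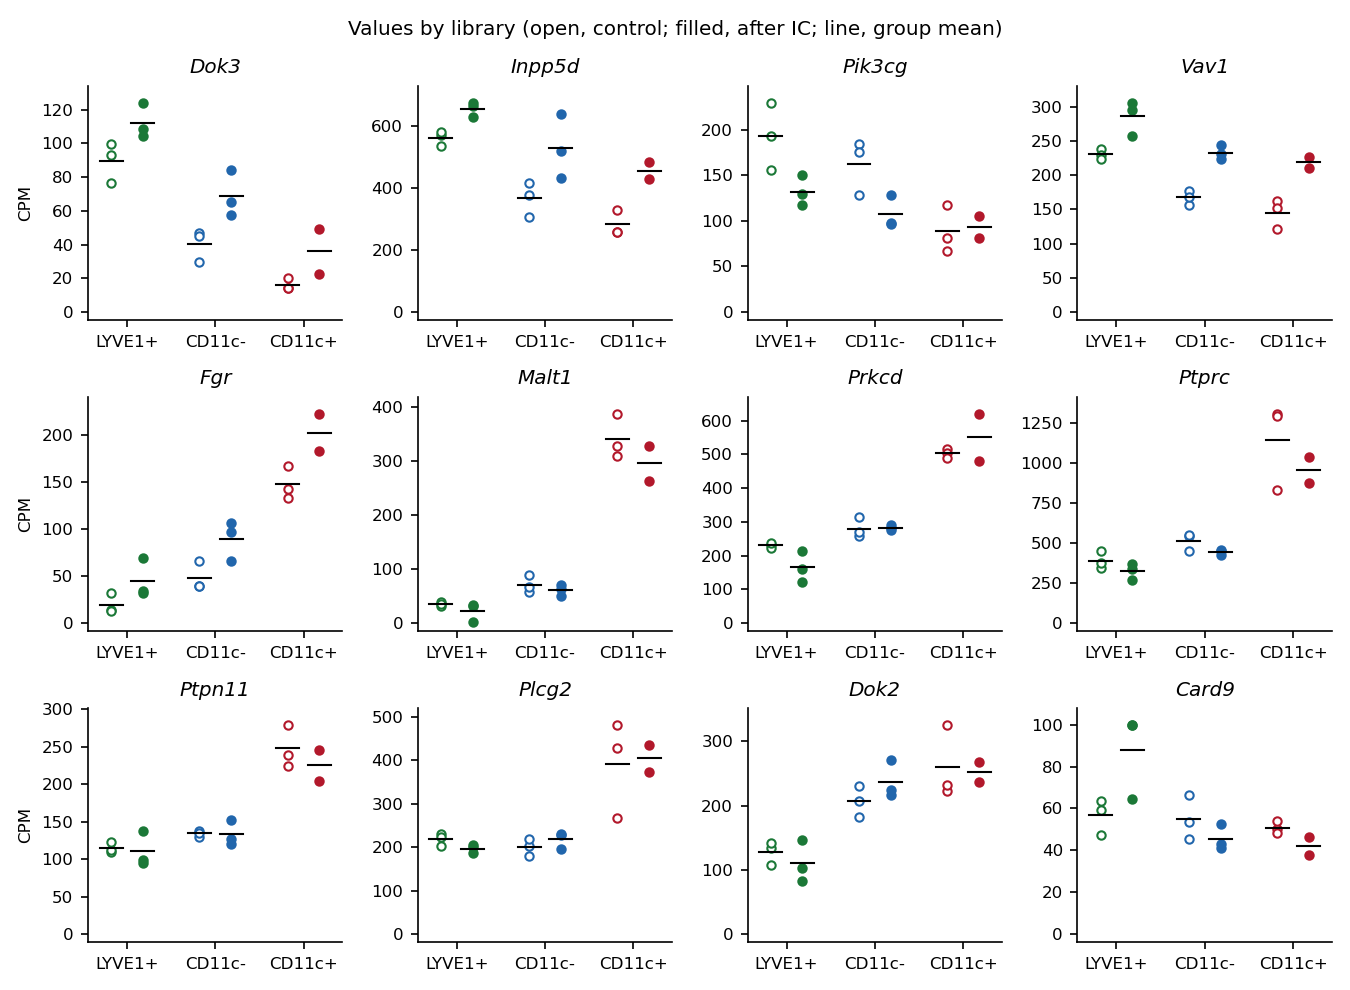
CPM of 12 genes in each library, by subset along the horizontal axis, with open points for controls, filled points for IC and a line at each group mean. Dok3 and Inpp5d are highest in LYVE1+CX3CR1+ macrophages, and Fgr, Malt1, Prkcd, Ptprc, Ptpn11 and Plcg2 in MHCII+CD11c+ macrophages.

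Between the MHCII+ subsets of control mice, a comparison that shares its MHCII+CD11c+ libraries with the one above, 10 members were called, 7 higher and 3 lower in MHCII+CD11c+, where 8.66% of all genes were called, 3.67% higher and 4.99% lower. Libraries did not overlap for 12 members on the higher and 7 on the lower side (12.6% and 14.9% of all genes). Higher were Ptprc (1.15 ± 0.18, adjusted p = 0.00015), Plcg2 (0.97 ± 0.18, adjusted p = 0.00124), Ptpn11 (0.88 ± 0.18, adjusted p = 0.00203), Prkcd (0.85 ± 0.18, adjusted p = 0.00274), Vav3 (1.06 ± 0.23, adjusted p = 0.0032), Fgr (1.61 ± 0.34, adjusted p = 0.00361) and Malt1 (2.27 ± 0.56, adjusted p = 0.0254). Lower were Dok3 (-1.32 ± 0.28, adjusted p = 0.00352), Pik3ap1 (-0.96 ± 0.23, adjusted p = 0.00747) and Pik3cg (-0.88 ± 0.22, adjusted p = 0.0125). Pik3ap1 encodes BCAP, an adaptor that brings PI3K to the membrane. It was at 338, 198 and 342 CPM in MHCII+CD11c- libraries, and 189, 92.3 and 169 in MHCII+CD11c+ controls, and the lowest library of the first group was just above the highest of the second. Calls of Malt1, Pik3ap1 and Pik3cg were lost in some alternatives, with an adjusted p of up to 0.0999 for Malt1, 0.0914 for Pik3ap1 and 0.258 for Pik3cg, and the other 7 held in all. Each of the 3 was lost without MHCII+CD11c- control replicate 1 or 3, and Malt1 and Pik3cg also without MHCII+CD11c+ control replicate 3. The calls of Pik3ap1 and Pik3cg were also lost with surrogate variables and in the fit on only the groups compared. Without MHCII+CD11c+ control replicate 2, the library with the higher Lyve1 level, 11 members were called here and 17 in the comparison with LYVE1+CX3CR1+.

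LYVE1+CX3CR1+ and MHCII+CD11c- controls differed less. Of the members, 2 were called, both higher in LYVE1+CX3CR1+, and 1.56% of all genes were called, 0.34% higher and 1.22% lower. These were Dok3 (1.14 ± 0.27, adjusted p = 0.0271, ranging from 0.00334 to 0.213) and Pik3r5 (0.92 ± 0.23, adjusted p = 0.0444, ranging from 0.000406 to 0.324). Pik3r5 was at 184, 321 and 141 CPM in MHCII+CD11c- controls, so that replicate 2 lay closer to the LYVE1+CX3CR1+ libraries than the others did. Neither call held in every alternative, since the Dok3 call was lost without any 1 of 5 libraries (all but MHCII+CD11c- control replicate 2), and leaving out single libraries gave 0 to 3 called members. Fgr (-1.34 ± 0.34, adjusted p = 0.0549) and Inpp5d (0.61 ± 0.17, adjusted p = 0.0637) narrowly missed the threshold. Libraries did not overlap for 6 members on each side, as for 11.3% of all genes on the higher and 10.3% on the lower side. DESeq2 called 6 members and limma voom 8. With surrogate variables 2 were called, Fgr and Malt1, both lower in LYVE1+CX3CR1+, and neither Dok3 nor Pik3r5.

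Since several related genes differed in opposite directions, ratios of levels per kb were taken within each library. They were chosen after the values were seen and are given as a description without a test. Pik3cg over Pik3cd was 1.77, 1.07 and 2.00 in LYVE1+CX3CR1+ controls, 0.523, 0.856 and 0.671 in MHCII+CD11c- libraries, and 0.343, 0.452 and 0.183 in MHCII+CD11c+. Thus p110 gamma RNA exceeded p110 delta RNA per length in every LYVE1+CX3CR1+ control and in no control library of the MHCII+ subsets, and after IC in 2 of 3 LYVE1+CX3CR1+ libraries (1.56, 1.35 and 0.982). Dok3 over Dok2 was 0.562, 0.538 and 0.494 in LYVE1+CX3CR1+ controls and 0.0325, 0.0693 and 0.0456 in MHCII+CD11c+. Inpp5d over Ptpn11 was 7.38, 7.71 and 7.10 against 1.78, 1.74 and 1.64, and Vav1 over Vav3 was 5.83, 6.64 and 5.80 against 1.43, 2.71 and 1.30. Both ratios lay in between in MHCII+CD11c- controls, at 3.42 to 4.58 and 3.71 to 4.21. Card9 over Malt1 was 6.53, 4.92 and 4.44 in LYVE1+CX3CR1+ and 0.534, 0.486 and 0.460 in MHCII+CD11c+ controls. A further pair, Plcg2 over Plcg1, had another order, at 9.62, 9.12 and 10.9 in LYVE1+CX3CR1+ controls, overlapping the 6.10 to 9.95 of MHCII+CD11c-, and at 34.9, 20.4 and 192 in MHCII+CD11c+, where the library with the highest ratio had Plcg1 at 2.65 CPM.

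**Figure D3:**
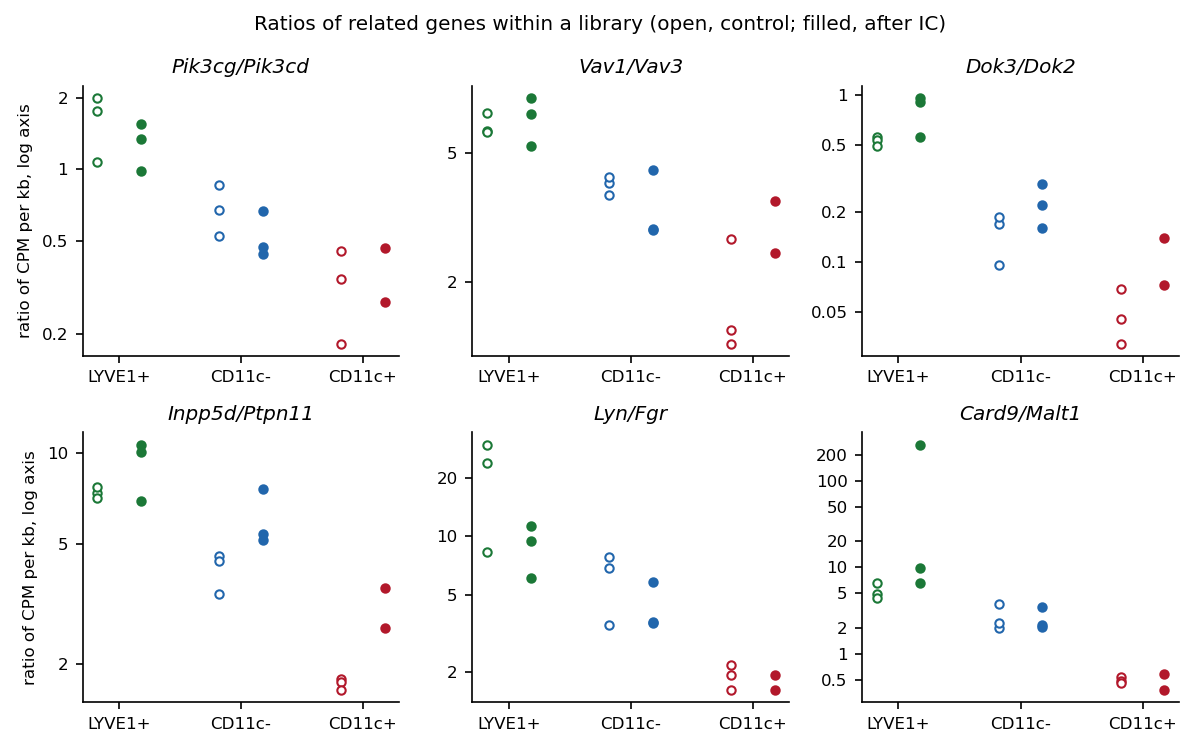
Ratios of the levels per kb of 6 pairs of genes within each library, on log axes, by subset, with open points for controls and filled points for IC. For the 6 pairs drawn the LYVE1+CX3CR1+ controls lie highest and the MHCII+CD11c+ controls lowest without overlap, although for Lyn over Fgr the LYVE1+CX3CR1+ control replicate 2 (8.30) lies close to the highest MHCII+CD11c- library (7.86).

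After IC, the subsets again differed in many members. LYVE1+CX3CR1+ and MHCII+CD11c+ macrophages differed in 14, with 2 higher and 12 lower in LYVE1+CX3CR1+, where 11.9% of all genes were called, 3.52% higher and 8.42% lower. Libraries did not overlap for 8 members on the higher and 21 on the lower side (13.1% and 27.8% of all genes). Prkcd had the smallest p (-1.73 ± 0.19, adjusted p = 1.7e-06), with 159.7, 214 and 123 CPM in LYVE1+CX3CR1+ and 479.9 and 620.4 in MHCII+CD11c+ libraries. Ptprc (-1.56 ± 0.20, adjusted p = 8.9e-06), Fgr (-2.16 ± 0.36, adjusted p = 0.000425), Ptpn11 (-1.03 ± 0.20, adjusted p = 0.000903), Dok2 (-1.19 ± 0.23, adjusted p = 0.000914), Plcg2 (-1.04 ± 0.20, adjusted p = 0.00109), Malt1 (-3.69 ± 0.64, adjusted p = 0.00231), Pik3cd (-1.28 ± 0.33, adjusted p = 0.0144) and Csk (-0.65 ± 0.20, adjusted p = 0.0371) were lower and Dok3 (1.63 ± 0.32, adjusted p = 0.00106) higher, as each was in controls. These 10 members were 62.5% of those called in controls and 71.4% of those called after IC, and over all genes the shares of calls in the same direction were 51.4% and 65.6%. Inpp5d, Pik3cg, Pik3r1, Pik3r5, Vav1 and Vav3 were called in controls but not after IC in the main fit. Inpp5d did not overlap after IC, at 629 to 677 CPM in LYVE1+CX3CR1+ and 430 to 485 in MHCII+CD11c+. It was called by DESeq2, DESeq2 size factors, voom, equal depth and the fit on only the groups compared. DESeq2 also called Vav1, and surrogate variables and removal of the length trend called Vav3. The Csk call after IC was lost in 10 of 14 alternatives, DESeq2 and each fit without 1 library among them (adjusted p of up to 0.328), and the Pik3cd call without LYVE1+CX3CR1+ IC replicate 1 or 2 or MHCII+CD11c+ IC replicate 2 (up to 0.198).

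The other calls after IC were in signalling genes not called in controls in the main fit, although some alternatives called Syk in controls too. Syk was at 355, 343 and 347 CPM in LYVE1+CX3CR1+ and 589 and 706 in MHCII+CD11c+ libraries (-0.89 ± 0.19, adjusted p = 0.00284). Grb2, the adaptor that brings the Ras exchange factor Sos to receptors, was at 123, 102 and 122 against 199 and 221 CPM (-0.86 ± 0.20, adjusted p = 0.00599). Card9 was at 64.4, 99.8 and 99.97 against 46.4 and 37.7 CPM, with no overlap (1.06 ± 0.27, adjusted p = 0.0108). Src was at 0 in all 3 LYVE1+CX3CR1+ libraries after IC, against 4.55 and 2.02 CPM in MHCII+CD11c+ and 3.33, 3.502 and 6.604 in MHCII+CD11c- libraries. With 3 counts as the floor in each library (mean 1.02 CPM), its mean level was at least 3.22-fold and at least 4.39-fold higher in those subsets. These bounds use group means and leave out the spread between the MHCII+ libraries. The adjusted p was 0.0439 and 0.0449, and neither call held in every alternative. With MHCII+CD11c+ IC replicate 2 left out, 6 of the 14 calls were left (Dok2, Fgr, Malt1, Plcg2, Prkcd and Ptprc), and 1 library then stood for that group and was assumed to vary like the others.

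MHCII+CD11c+ and MHCII+CD11c- macrophages after IC differed in 4 members, all higher in MHCII+CD11c+, while 4.03% of all genes were called, 2.29% higher and 1.75% lower. Libraries did not overlap for 15 members on the higher and 4 on the lower side (19.6% and 17% of all genes). They were Ptprc (1.11 ± 0.20, adjusted p = 0.00132), Prkcd (0.96 ± 0.19, adjusted p = 0.0036), Plcg2 (0.89 ± 0.20, adjusted p = 0.00945) and Ptpn11 (0.76 ± 0.20, adjusted p = 0.0236). All 4 had been called in controls in the same direction, and 0 were called without MHCII+CD11c+ IC replicate 2. LYVE1+CX3CR1+ and MHCII+CD11c- macrophages after IC differed in 6 members, with 5.54% of all genes called, 0.746% higher and 4.79% lower. Libraries did not overlap for 4 members on the higher and 13 on the lower side (6.16% and 15.7% of all genes). Higher in LYVE1+CX3CR1+ were Pik3r5 (0.95 ± 0.24, adjusted p = 0.0162) and Card9 (0.95 ± 0.24, adjusted p = 0.0171). Lower were Dok2 (-1.10 ± 0.21, adjusted p = 0.00228), Prkcd (-0.77 ± 0.18, adjusted p = 0.0103), Pik3ap1 (-0.92 ± 0.23, adjusted p = 0.0162) and Src, and of the 6 only Dok2 held in every alternative. The call of Prkcd was lost without LYVE1+CX3CR1+ IC replicate 3 (adjusted p of up to 0.0924 over the alternatives), that of Pik3r5 without MHCII+CD11c- IC replicate 2 or 3 (up to 0.108), that of Card9 without replicate 2 or 3 of either group (up to 0.0996) and that of Pik3ap1 without LYVE1+CX3CR1+ IC replicate 1 or 2 or MHCII+CD11c- IC replicate 2 or 3 (up to 0.0747). The calls of Prkcd and Card9 were also lost with voom and in the fit on only the groups compared.

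**Figure D4:**
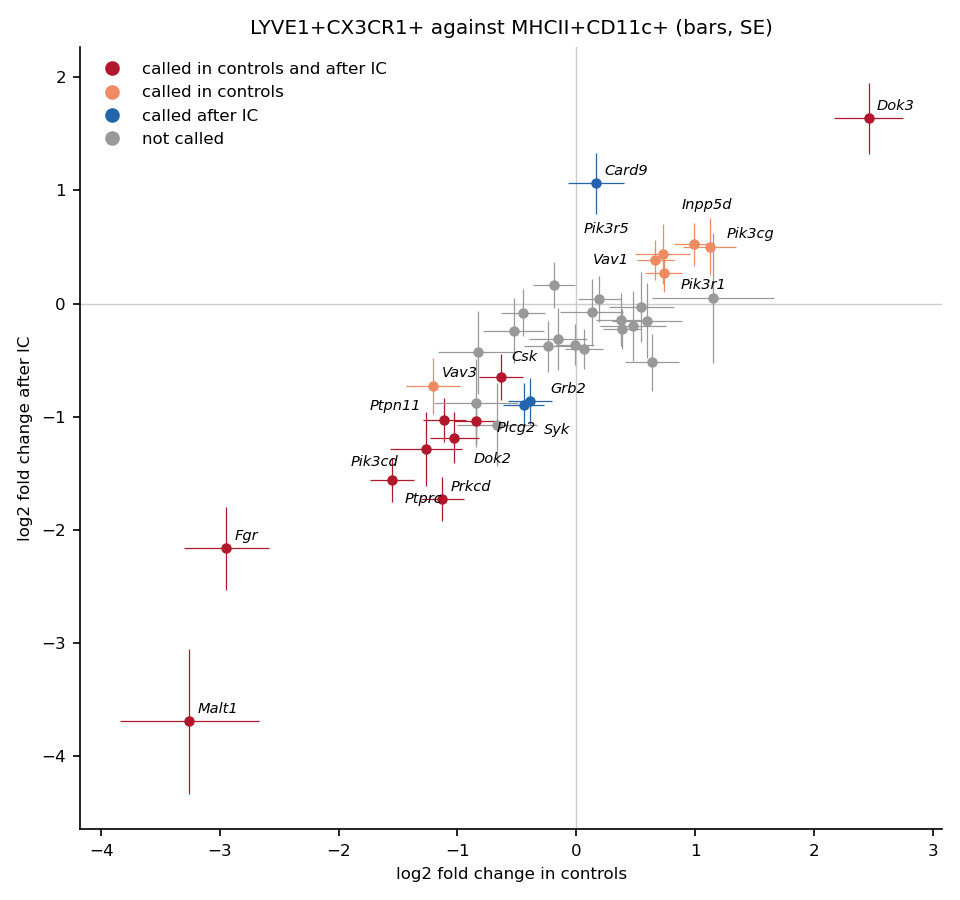
Log2 fold change of LYVE1+CX3CR1+ against MHCII+CD11c+ macrophages for 38 members (Src has no fold), in controls on the horizontal and after IC on the vertical axis, with SE bars and colours for the comparison in which a gene was called. The 10 genes called in both lie in the lower left, except Dok3 at the upper right.

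No member was called as different between IC and control in any subset (edgeR), although 7 of 39 in LYVE1+CX3CR1+, 12 in MHCII+CD11c- libraries, and 7 in MHCII+CD11c+ macrophages had an unadjusted p under 0.05. Over all genes, 0.963% (0.151% higher and 0.812% lower), 0.701% (0.543% and 0.157%) and 0.216% (all higher) were called and 2159, 1526 and 795 had such a p. DESeq2 called 1 member (Fgr), 2 members (Lcp2 and Vav2) and 0, and limma voom 0 in each. The median log2 fold change over the members was -0.15, 0.09 and 0.12, beside -0.14, -0.03 and 0.01 over all genes. IC and control libraries did not overlap for 6 members on the higher and 7 on the lower side in LYVE1+CX3CR1+ (4.95% and 16.7% of all genes), for 7 and 2 in MHCII+CD11c- (8.72% and 8.48%) and for 12 and 4 in MHCII+CD11c+ macrophages (14.1% and 9.02%).

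In LYVE1+CX3CR1+ macrophages the smallest p was that of Fgr, at 13.5, 31.9 and 13.3 CPM in controls and 69.3, 31.8 and 34.4 after IC. The highest control and the lowest IC library overlapped, and the log2 fold change of 1.24 ± 0.35 had an adjusted p of 0.0907, between 0.0168 and 0.302 over the alternatives. Fgr passed the threshold in 3 of these, namely DESeq2, surrogate variables and the fit without LYVE1+CX3CR1+ control replicate 2. In MHCII+CD11c+ macrophages Fgr was also above all controls after IC, at 183 to 223 CPM against 134 to 167, and was not called. In MHCII+CD11c- macrophages its libraries overlapped. Card9, which links Syk to NF-kappaB, was at 63.8, 59.5 and 47.4 CPM in controls and 64.4, 99.8 and 99.97 after IC, so that IC replicate 1 was level with the controls (0.63 ± 0.24, adjusted p = 0.213). Prkcd was at 231, 223 and 238 CPM in controls and 159.7, 214 and 123 after IC (-0.48 ± 0.18, adjusted p = 0.21), and Syk at 439.7, 456 and 502 and then 355, 343 and 347 (-0.42 ± 0.18, adjusted p = 0.262). For both, all IC libraries were below all controls.

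In MHCII+CD11c- macrophages Lcp2, encoding the adaptor SLP-76, was at 131, 135 and 129 CPM in controls and 184, 189 and 216 after IC (0.58 ± 0.16, adjusted p = 0.105, between 0.0223 and 0.456). The 3 Vav genes each had an unadjusted p under 0.05, in different directions. Vav2 was at 116, 113 and 154 CPM in controls and 75.2, 62.8 and 92.2 after IC (-0.73 ± 0.20, adjusted p = 0.105, between 0.0368 and 0.490), whereas Vav3 was at 74.2, 71.7 and 67.9 and then 92.9, 129.6 and 135 (0.74 ± 0.22, adjusted p = 0.16) and Vav1 at 177, 157 and 169 and then 244, 224 and 231 (0.47 ± 0.16, adjusted p = 0.225). IC and control libraries did not overlap for any of these 4 genes. Inpp5d was at 418, 377 and 308 CPM in controls and 639.9, 432 and 522 after IC (0.53 ± 0.17, adjusted p = 0.187).

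MHCII+CD11c+ macrophages had only 2 libraries after IC. Inpp5d was at 330.3, 259 and 259.8 CPM in controls and 485 and 429.5 after IC (0.69 ± 0.18, adjusted p = 0.206), and Dok3 at 14.0, 20.4 and 14.0 and then 49.4 and 22.7 (1.15 ± 0.31, adjusted p = 0.206, between 0.0547 and 1). Pik3ap1 was at 189, 92.3 and 169 CPM and then 258 and 301 (0.90 ± 0.25, adjusted p = 0.252, between 0.0505 and 1). Each IC library of these 3 genes was above each control, and the IC replicates of Dok3 were far apart. For the abundant genes of the receptor-proximal step the intervals were narrower than those of Dok3 and Pik3ap1. The 95% interval of the log2 fold change reached from -0.41 to 0.41 for Tyrobp, -0.37 to 0.43 for Syk and -0.09 to 0.74 for Lyn. Every IC library of Dok3, Inpp5d and Vav1 lay above every control in all 3 subsets, without a call in the main fit. In LYVE1+CX3CR1+ macrophages, Dok3 lay at 76.2 to 99.7 CPM in controls and at 104 to 124 after IC. Inpp5d lay there at 537 to 581 and at 629 to 677 CPM. Dok3 in MHCII+CD11c- macrophages lay at 29.4 to 46.7 and at 57.5 to 84.0 CPM. For Pik3ap1 the libraries overlapped in the other 2 subsets.

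Differences between the IC responses of the subsets were tested as interactions, and no member was called (edgeR, DESeq2 and limma voom). Of all genes, 0.0262% (0.00655% higher and 0.0196% lower) were called for LYVE1+CX3CR1+ against MHCII+CD11c-, 0.0327% (0.0131% and 0.0196%) for LYVE1+CX3CR1+ against MHCII+CD11c+ and 0% for MHCII+CD11c+ against MHCII+CD11c-, and 3, 5 and 1 members had an unadjusted p under 0.05. Lcp2 differed by -0.72 ± 0.22 between LYVE1+CX3CR1+ and MHCII+CD11c- responses (adjusted p = 0.419). Pik3ap1 differed by -1.16 ± 0.34 (adjusted p = 0.263) and Card9 by 0.90 ± 0.36 (adjusted p = 0.502) between LYVE1+CX3CR1+ and MHCII+CD11c+ responses. Vav3 differed by -0.97 ± 0.34 between MHCII+CD11c+ and MHCII+CD11c- responses (adjusted p = 1).

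**Figure D5:**
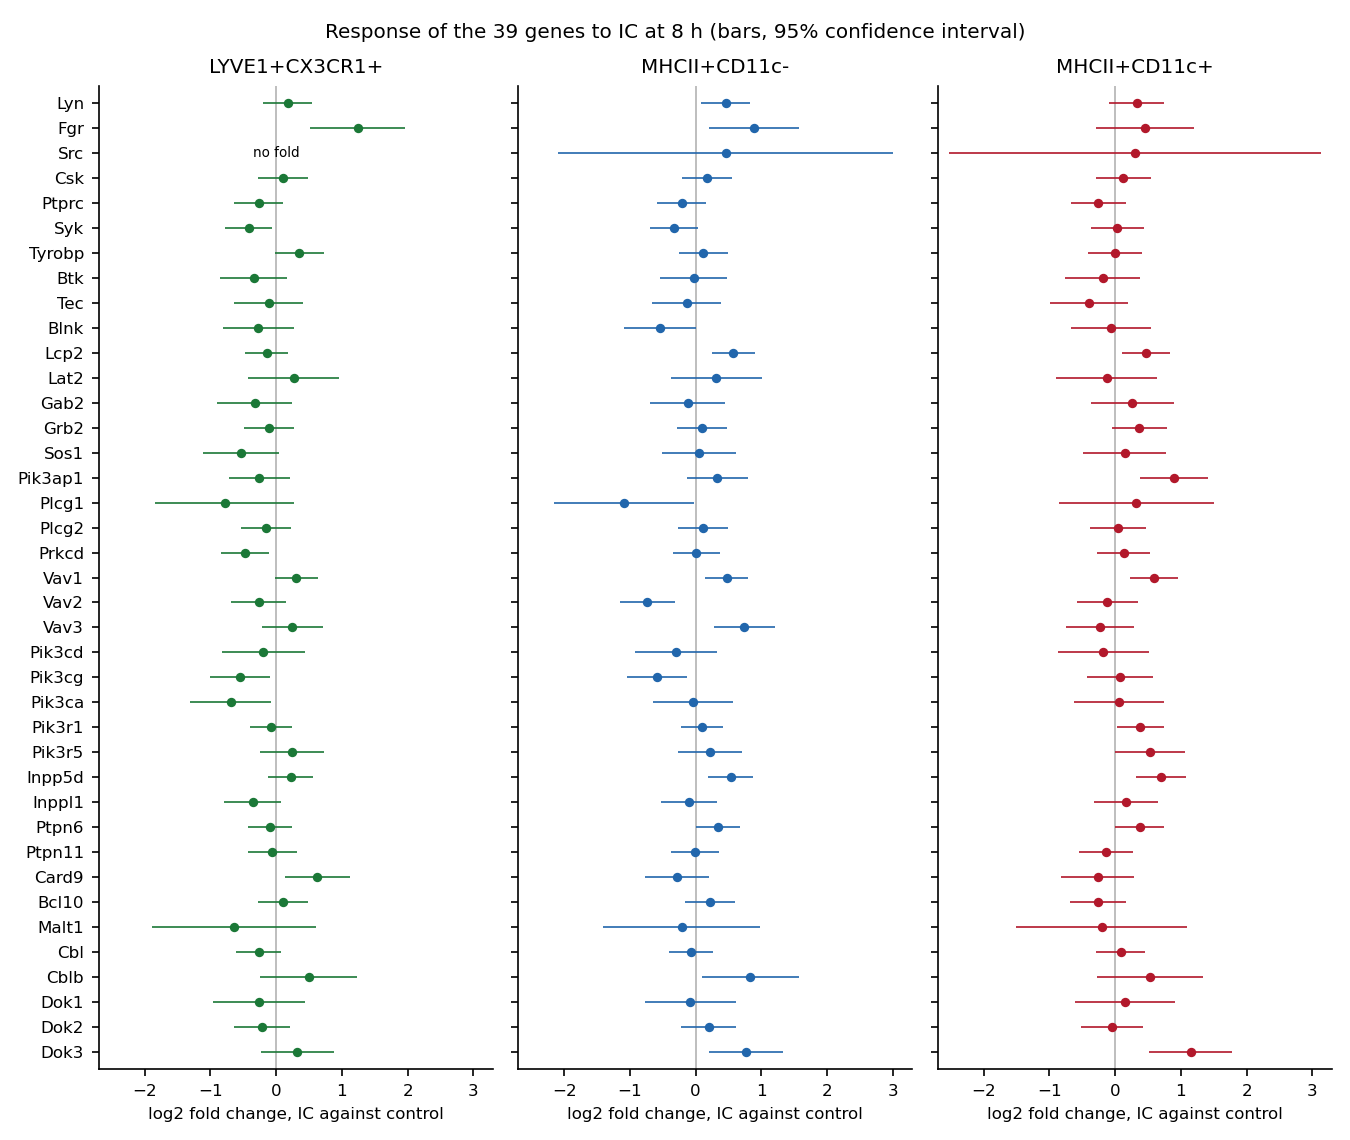
Log2 fold change of IC against control for the 39 genes in the 3 subsets, with 95% confidence intervals that are not adjusted for the number of genes. Most intervals include 0, Fgr lies farthest right in LYVE1+CX3CR1+ (1.24) and Dok3 in MHCII+CD11c+ macrophages (1.15), and Src in LYVE1+CX3CR1+ is given no fold because its IC libraries were at 0.

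In the main edgeR fit, 21 of the 39 members were called in at least 1 of the 12 contrasts, beside 22.6% of all genes, and 18 in none. Of these 18, DESeq2 called Bcl10, Lat2, Lcp2 and Vav2 in some contrast, and limma voom called Blnk, Cblb, Inppl1, Lat2, Lcp2, Pik3ca, Tec and Vav2. Other edgeR fits called Bcl10, Blnk, Cblb, Inppl1, Lat2, Tec, Vav2, Plcg1 (equal depth) and Dok1 (surrogate variables) in some contrast. Near the receptor, Tyrobp ranged over the 17 libraries from 179 to 303 CPM with a median of 237, and Lyn from 225 to 434 with a median of 336. The Tec kinase genes, whose products activate phospholipase C gamma, ranged from 30.7 to 89.1 CPM for Btk and from 38.0 to 141 for Tec, each lowest in a LYVE1+CX3CR1+ IC library and highest in MHCII+CD11c+ control replicate 1. Adaptors in this class were Blnk (36.0 to 167 CPM), Lcp2 (121 to 216), Lat2 (36.3 to 108), Gab2 (50.2 to 125) and the Ras exchange factor gene Sos1 (22.4 to 61.5). For Gab2 the lowest and the highest value both came from MHCII+CD11c- controls, so that its spread within 1 group was as wide as over all libraries. The others were Plcg1 (2.65 to 35.1 CPM), Vav2 (62.8 to 158), Pik3ca (20.7 to 89.9), Inppl1 (62.3 to 131), Ptpn6 (186 to 321), Bcl10 (86.9 to 143), Dok1 (12.9 to 38.7) and the ubiquitin ligase genes Cbl (158 to 295) and Cblb (21.4 to 114). LYVE1+CX3CR1+ IC replicate 3, the smallest library, held the lowest value of Btk, Sos1, Pik3ca, Cbl and Dok1.

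A second list of 53 tested genes, the Fc receptors and further signalling genes, gave the surroundings of the members. In response to IC, 0 of them were called in LYVE1+CX3CR1+ macrophages (edgeR; 6 with an unadjusted p under 0.05). The gene called in MHCII+CD11c- was Fcer1g, encoding the ITAM-bearing Fc receptor gamma chain that the members act on, at 216, 197 and 260 CPM in controls and 398, 442 and 495 after IC. All IC libraries were above all controls (0.99 ± 0.18, adjusted p = 0.00612, ranging from 0.000917 to 0.0600, with the call lost without MHCII+CD11c- control replicate 1 or IC replicate 3). In MHCII+CD11c+ macrophages the adaptor gene Gab1 was called (1.78 ± 0.35, adjusted p = 0.029), and the call was lost in 7 alternatives, among them each fit without MHCII+CD11c+ control replicate 1 or 3 or IC replicate 1, with an adjusted p of up to 1.

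Between subsets of control mice, 22 of these 53 genes were called for LYVE1+CX3CR1+ against MHCII+CD11c+, 11 in each direction, 11 for MHCII+CD11c+ against MHCII+CD11c- (4 higher and 7 lower) and 0 for LYVE1+CX3CR1+ against MHCII+CD11c- (edgeR; 10 with an unadjusted p under 0.05), where 15.2%, 8.66% and 1.56% of all genes were called. Fcgr1, the high-affinity receptor for IgG, was at 58.7, 60.3 and 63.6 CPM in LYVE1+CX3CR1+ and 17.02, 19.9 and 0.756 in MHCII+CD11c+ controls (2.20 ± 0.57, adjusted p = 0.0184). The Fcgr1 call was lost with the replicate block (adjusted p = 0.0624), in the fit on only the groups compared (0.0594) and without LYVE1+CX3CR1+ control replicate 3 (0.0579). Gab1 (3.11 ± 0.34, adjusted p = 4.65e-07) and the protein kinase C gene Prkcb (1.75 ± 0.31, adjusted p = 0.000255) were higher in LYVE1+CX3CR1+ controls. The phosphatase gene Ptpn22 (-2.16 ± 0.42, adjusted p = 0.000902), the calcium channel gene Itpr1 (-3.42 ± 0.43, adjusted p = 3.16e-05), the adaptor gene Sla (-1.54 ± 0.26, adjusted p = 0.000155) and the GTPase gene Rac2 (-1.09 ± 0.22, adjusted p = 0.00107) were lower. Prkcb thus stood opposite to the member Prkcd in this comparison. After IC, 13 of the 53 were called for LYVE1+CX3CR1+ against MHCII+CD11c+, 3 for LYVE1+CX3CR1+ against MHCII+CD11c- and 3 for MHCII+CD11c+ against MHCII+CD11c-, beside 11.9%, 5.54% and 4.03% of all genes.

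Counting reads for 7 of the 39 genes may include reads of a gene on the opposite strand, since the use of strand in counting is not stated. The share of exonic bases that overlap such a gene was 36.3% for Lat2, 20.3% for Inppl1, 6.96% for Ptpn6, 6.68% for Plcg1, 6.32% for Lcp2, 6.09% for Lyn and 3.79% for Card9.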

How the data were processed

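Bulk RNA-seq was done on macrophages sorted after collagenase digestion of the synovium, with 5 ng of RNA per library and a stranded pico-input kit. The deposited values are raw counts (integers, not normalized) for gene symbols. Per the submitters' processing notes the authors used Trim Galore, FastQC, HISAT2, the mm10 build and featureCounts, and the versions, gene annotation and strand setting are not given in the sources used here. A further 1 column matched no sample and was not used. The group of each library was taken from its label.

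Library totals were 2301913 to 7248939 counts. The 39 genes and the gene lists were chosen with earlier results of these data known. Genes were filtered with filterByExpr (minimum count 10), leaving 15272, library sizes were scaled by TMM, and the 17 libraries entered 1 model with a mean per group (6 means) in edgeR 4.0.16 (R 4.3.3; quasi-likelihood test, robust, 11 residual degrees of freedom; biological coefficient of variation 45.1%). The 12 contrasts were IC against control per subset, pairs of subsets in controls and after IC, and differences of IC responses. Benjamini-Hochberg adjustment was made over all genes of a contrast, and a gene was called at an adjusted p under 0.05. Values are log2 fold changes ± SE. The 9 alternatives besides leaving out single libraries were DESeq2 1.42.0, DESeq2 size factors, limma 3.58.1 voom with sample weights, 5 surrogate variables (sva 3.50.0), no filter, only the groups compared, equal depth, removal of a length trend and a replicate block. Scripts were tested on simulated data.

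All 39 genes were named, with values by library for those called or most abundant. CPM per kb used the longest GENCODE M21 transcript (GRCm38), and 97.5% of symbols had a length (22266 matched directly and 30 through a synonym). Promoter windows came from RefSeq (GRCm38.p6), and those on chromosome 18 were left out. A library's floor was 3 counts, which covers counting error only, as PCR copies are not independent molecules. No replicates were repeats of each other (lowest chi-square per degree of freedom 6.77). Of the markers listed, 6 genes were not analysed here. Some genes of the lists are not reported here.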

Additional observations from a re-analysis of the deposited data

Results flagged for a closer look

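Card9 had responses to IC of opposite sign in 2 subsets, with no overlap between IC and control libraries in either. Its log2 fold change was 0.63 in LYVE1+CX3CR1+ and -0.27 in MHCII+CD11c+ macrophages, where the controls were at 49.98, 48.3 and 54.1 CPM and the IC libraries at 46.4 and 37.7. The difference was tested as an interaction and was 0.90 ± 0.36, with an unadjusted p of 0.019 and an adjusted p of 0.502 in edgeR, so it did not pass the threshold. In LYVE1+CX3CR1+ macrophages the highest control (63.8 CPM) and the lowest IC library (64.4) of Card9 were almost level. Of all genes, 4.95% did not overlap on the higher side in LYVE1+CX3CR1+ and 9.02% on the lower side in MHCII+CD11c+. The share of genes with both was not counted.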

How the results depend on the processing

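Of the values of single genes over all alternatives, 1688 kept their direction and their side of the threshold, 256 kept their direction but lost the call, 5 gained it and 0 changed direction. For IC against control in LYVE1+CX3CR1+ macrophages 0 members were called, but 1 with DESeq2 and 2 with surrogate variables (Fgr and Malt1), and in MHCII+CD11c- 0 but 2 with DESeq2. For LYVE1+CX3CR1+ against MHCII+CD11c- controls, 2 calls became 6 with DESeq2, 8 with voom, 1 with the length trend removed and 4 with the replicate block. With surrogate variables the count stayed at 2, but the genes were Fgr and Malt1 in place of Dok3 and Pik3r5. After IC the 6 calls became 3 in the fit on the groups compared, 3 with voom and 10 with surrogate variables. For MHCII+CD11c+ against MHCII+CD11c- after IC, 4 became 7 with DESeq2, 12 with voom and 7 with surrogate variables. The cause was not tested. Leaving out single libraries gave 0 to 1 calls for IC in LYVE1+CX3CR1+, 0 to 3, 14 to 17 and 7 to 11 for the 3 pairs of control subsets in the order LYVE1+CX3CR1+ against MHCII+CD11c-, LYVE1+CX3CR1+ against MHCII+CD11c+ and MHCII+CD11c+ against MHCII+CD11c-, and 2 to 7, 6 to 12 and 0 to 4 after IC, and 0 for the other IC responses and interactions. The labels do not say whether same-numbered libraries share animals, and the main model did not pair them. The correlation of deviations between same-numbered libraries of both MHCII+ control groups was 0.0986, 0.286 and 0.0796. No pair of groups had all of them over 0.1. Between groups of the same treatment every such correlation was positive, the lowest 0.00129. Between a control and an IC group they lay from -0.153 to 0.0817. Whether libraries are paired was not tested. Across all genes the median IC response in LYVE1+CX3CR1+ was -0.14 (log2), and -0.05 with DESeq2 size factors. Depth limits Src and Plcg1 in the smallest libraries.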
